A study of Mus musculus with 9 samples.

Results

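Neutrophils, monocytes and macrophages are the phagocytic white blood cells that enter tumors, and 33 mouse genes that mark them or are made by them were followed in 9 oral tumors. The genes were chosen by name, as known myeloid cell markers and alarmins (proteins released or secreted on tissue damage), and each was read on its probe set with the highest mean log2 signal. Of the 33 genes, 31 had a probe set that names 1 gene, out of 18193 such genes on the array, and Fpr1 and Retnlg were not analysed here. Of the 31, 28 passed the filter on low signal and were tested together with all 12167 genes that passed. Camp, Cd163 and Marco did not pass and are given by their values.

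The tumors form 3 groups of 3, with 1 Affymetrix expression array per tumor. The p53R172H/- tumors carried the missense allele p53R172H and a null allele, the p53R172H/+ tumors the same missense allele and a wild-type allele, and the p53-/- tumors had lost p53. Activation of Ras, named in the series' title, and an age of 1 year were shared by all groups, so the p53-/- tumors are the comparison for the mutant ones and no tumor with unaltered p53 or normal tissue enters. The labels write a K before each genotype without explaining it, and the sources used here do not give the promoter that drives the alleles, the cells they act in, or whether the tumors of a group came from separate animals. P-values therefore measure the spread between these tumors.

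Neutrophils are short-lived cells that arrive first at a wound or tumor, drawn by chemokines, and carry S100a8 and S100a9, which form the alarmin calprotectin, in their cytoplasm and antimicrobial proteins in their granules. Monocytes leave the blood through the chemokine receptor Ccr2 and become macrophages, whose survival depends on the receptor Csf1r and which take up debris through scavenger receptors and tag it with the complement protein C1q. In stratified epithelia such as the oral lining, activated keratinocytes also make S100a8, S100a9, Lcn2 and interleukin 1, so these genes are not held by myeloid cells alone. In whole tumors, fewer cells of a type and less RNA per cell cannot be told apart.

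At an adjusted p of 0.05 (limma, Benjamini-Hochberg over 12167 genes), 0 of the 28 tested genes passed in each comparison, and the share of all genes that passed was 0%. The account below therefore gives values, and an unadjusted p of 0.05 is used only to count. The basal keratinocyte markers were at a mean log2 signal of 11.95 to 12.05 in p53R172H/-, 11.94 to 12.11 in p53R172H/+ and 11.89 to 12.09 in p53-/- tumors, and 0 of their 9 measured genes lay near the floor. Median signals of the arrays ran from 109 to 123. The ratio of 3' to 5' signal for Gapdh, a measure of RNA integrity, was 0.929 to 1.01 in p53R172H/-, 0.938 to 0.981 in p53R172H/+ and 0.961 to 1.03 in p53-/- tumors. The same ratio for actin was 1.31, 1.499 and 1.56 in p53R172H/-, 1.36, 1.48 and 1.48 in p53R172H/+ and 1.67, 1.69 and 1.502 in p53-/- tumors. The p53R172H/+ and p53-/- tumors did not overlap in it, and its part in the differences between them was not tested.

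Of the 28 tested genes, 6 were higher in every p53R172H/+ than in every p53-/- tumor, as were 7.08% of all genes, and the promoters of those with a sequence to print are shown because their groups lay apart. The stretches are the 250 bases before the annotated start, from RefSeq (build GRCm38.p6), written 5' to 3' along the gene. They are Il1b (chr2:129371140-129371389, minus strand), Clec4d (chr6:123261857-123262106, plus strand), Clec4e (chr6:123289872-123290121, minus strand) and Fcgr3 (chr1:171059395-171059644, minus strand, the other annotated start lying a few bases away). Capitals mark matches, on either strand, to GAGGAAG (the core bound by PU.1, the master factor of myeloid cells) or TTGCNNAA (a core of C/EBP factors, which drive granulocyte genes).
Il1b: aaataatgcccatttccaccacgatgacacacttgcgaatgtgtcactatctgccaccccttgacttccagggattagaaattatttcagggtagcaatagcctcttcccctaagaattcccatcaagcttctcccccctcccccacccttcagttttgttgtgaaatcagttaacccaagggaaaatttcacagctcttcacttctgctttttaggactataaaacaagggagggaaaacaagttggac
Clec4d: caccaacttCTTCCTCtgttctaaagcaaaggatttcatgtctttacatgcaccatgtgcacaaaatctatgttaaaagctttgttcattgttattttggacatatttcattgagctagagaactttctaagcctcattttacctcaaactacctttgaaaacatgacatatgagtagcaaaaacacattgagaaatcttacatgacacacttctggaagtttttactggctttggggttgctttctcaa
Clec4e: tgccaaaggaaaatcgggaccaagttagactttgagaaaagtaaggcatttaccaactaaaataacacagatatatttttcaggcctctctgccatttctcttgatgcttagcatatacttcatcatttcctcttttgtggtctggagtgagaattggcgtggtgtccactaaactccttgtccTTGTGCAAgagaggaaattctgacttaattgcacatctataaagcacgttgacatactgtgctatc
Fcgr3: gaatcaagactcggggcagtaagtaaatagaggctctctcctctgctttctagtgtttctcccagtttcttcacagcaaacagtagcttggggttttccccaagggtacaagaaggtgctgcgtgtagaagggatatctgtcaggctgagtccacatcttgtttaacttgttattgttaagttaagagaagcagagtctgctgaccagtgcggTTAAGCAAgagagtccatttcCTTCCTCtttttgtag
Both strands were also searched for TGANTCA, the AP-1 site, and for an NF-kB site, and in these stretches no match overlapped another. Clec4d had the PU.1 letters starting 241 bases before its start and Clec4e the C/EBP letters 66 bases before it. Fcgr3 had C/EBP letters at 37 and PU.1 letters at 16 bases before the start. The Il1b stretch had no match to any of the 4 motifs. Across 27 of the 33 genes with an entry (29 promoters), the PU.1 letters were in 10 promoters and the C/EBP letters in 8, while 10.6% and 9.56% of all 32851 promoters held them. The AP-1 letters were in 1 of the 29 promoters, that of Cd68, against 6.75% of all promoters, and the NF-kB letters in 0, against 0.98%. A match describes the letters and is not evidence that a factor binds.

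In p53R172H/+ tumors, set against p53-/- tumors to see what accompanies the missense allele beside a wild-type one, 25 of the 28 genes had the higher mean, against 43.9% of all tested genes. All 10 tested neutrophil genes and 12 of 15 monocyte and macrophage genes were among them. The 10 were Il1b, Clec4d, Clec4e, S100a8, S100a9, Lcn2, Ngp, Csf3r, Fpr2 and Trem1. Il1b, Clec4d, Clec4e, Trem1, S100a8, S100a9 and Lcn2 are also made by other cells, so the list's name does not fix the source of its signal. Of the 10, 3 lay without overlap, namely Il1b, Clec4d and Clec4e, where 7.08% of all genes did. The median log2 fold change was 0.31 over the 10 neutrophil genes and 0.23 over the 15 monocyte and macrophage genes, against -0.03 over all genes. The largest differences lay in the cytokine Il1b, the sensing receptors Clec4d, Clec4e and Cd14, the lysozyme gene Lyz2 and the antibody receptor Fcgr3.

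Il1b encodes interleukin 1 beta, a fever and inflammation cytokine made by activated monocytes, macrophages and neutrophils. Its signal was 1265, 1757 and 782 in the p53R172H/+ tumors, against 533, 385 and 405 in the p53-/- tumors. Every p53R172H/+ tumor was above every p53-/- tumor, and of these groups the p53R172H/+ tumors had the wider spread. The means were 1268 ± 487 in p53R172H/+ and 441 ± 80.1 in p53-/- tumors (SD, n = 3 each), a log2 fold change of 1.46 ± 0.36 (SE), 2.76-fold higher, with an adjusted p of 0.359 (limma).

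Clec4d and Clec4e are neighbouring genes for C-type lectins that sense fungal and mycobacterial lipids and damaged cells. Clec4d was at 483, 401 and 224 signal units in p53R172H/+ tumors, against 149, 124 and 210 in p53-/- tumors. Clec4e was at 456, 406 and 131 in p53R172H/+ tumors, against 122, 27.9 and 109 in p53-/- tumors. In both genes p53R172H/+ tumors 1 and 2 were far above the rest, and tumor 3 lay only just above the highest p53-/- tumor. The log2 fold changes were 1.16 ± 0.33 (SE) for Clec4d, with an adjusted p of 0.359, and 1.70 ± 0.55 (SE) for Clec4e, with an adjusted p of 0.396 (limma). The Clec4e value of p53-/- tumor 2 lay below the floor of 52.6 and was raised to it, and with the mean of both Clec4e probe sets the log2 fold change was 1.13.

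Cd14, the co-receptor that hands lipopolysaccharide to Toll-like receptor signalling, was at 1345, 895 and 1143 in p53R172H/+ tumors, against 781, 618 and 612 in p53-/- tumors. These groups did not overlap, and the log2 fold change was 0.74 ± 0.19 (SE, adjusted p = 0.359, limma). Fcgr3, a low-affinity receptor for antibody complexes, was at 383, 297 and 326 in p53R172H/+ tumors, against 186, 153 and 212 in p53-/- tumors (0.87 ± 0.32 SE, adjusted p = 0.425, limma). Tyrobp, the adaptor DAP12 through which many myeloid receptors signal, was at 982, 887 and 1008 in p53R172H/+ tumors, against 754, 588 and 744 in p53-/- tumors (0.47 ± 0.15 SE, adjusted p = 0.402, limma). With Il1b, Clec4d and Clec4e these made 6 of 28 genes whose groups did not overlap with p53R172H/+ higher, where 7.08% of all genes did so, and 0 did so in the lower direction, where 8.86% of all genes did.

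Lyz2, the lysozyme of macrophages and neutrophils, was at 3523, 1716 and 2315 in p53R172H/+ tumors, against 867, 543 and 1964 in p53-/- tumors. The p53-/- tumor 3 lay within the p53R172H/+ range, so the groups overlapped despite a log2 fold change of 1.31 ± 0.54 (SE, adjusted p = 0.463, limma). Cd68, a lysosomal glycoprotein of macrophages, was at 676, 445 and 392 in p53R172H/+ tumors, against 370, 306 and 448 in p53-/- tumors (0.41 ± 0.22 SE), and this value was 0.17 without p53R172H/+ tumor 1.

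In all, 8 of the 28 genes had an unadjusted p under 0.05 with p53R172H/+ higher, against 4.75% of all genes, and 0 with p53R172H/+ lower, against 5.6%. They were Il1b, Clec4d, Clec4e, S100a8, Cd14, Fcgr3, Lyz2 and Tyrobp. Without p53-/- tumor 2 the count was 4, against 3.85% of all genes, the median of the 15 monocyte and macrophage genes 0.03 and that of the 10 neutrophil genes 0.30. Without p53R172H/+ tumor 3, these medians were 0.09 and 0.17, and the count was again 8, against 6.21% of all genes. Muscle genes, which mark neighbouring tissue in the sample, had a mean log2 signal of 6.24 to 8.53 in p53R172H/+ and 7.57 to 8.41 in p53-/- tumors. With that muscle level as a covariate, 10 of the 28 genes had an unadjusted p under 0.05. The share of all genes in that fit is not given here, so this count has no background beside it.

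**Figure D1:**
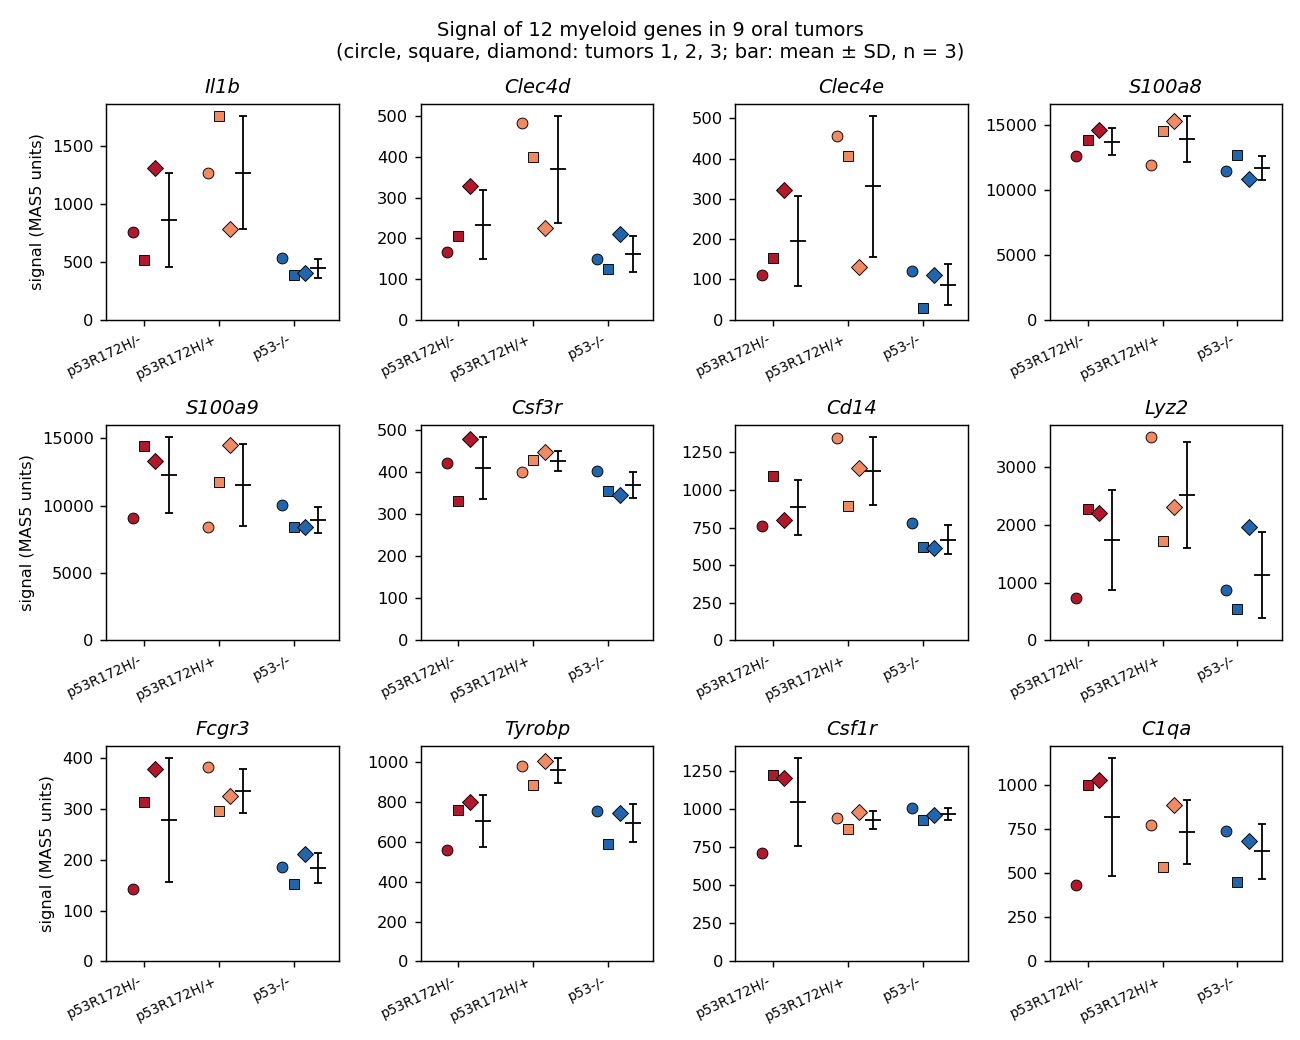
Signal (MAS5 units, linear axis from 0) of 12 genes in each of 9 tumors, grouped by genotype, with circles, squares and diamonds for tumors 1, 2 and 3 and bars for the mean ± SD of 3 tumors. Il1b, Clec4d, Clec4e, Cd14, Fcgr3 and Tyrobp were higher in every p53R172H/+ than in every p53-/- tumor, while Csf1r and C1qa overlapped.

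The alarmin genes had high and similar signals in all groups. S100a8 was at 12553, 13835 and 14613 in p53R172H/- tumors, at 11911, 14498 and 15295 in p53R172H/+ tumors, and at 11460, 12693 and 10840 in p53-/- tumors. The groups overlapped, with a log2 fold change of 0.25 ± 0.10 (SE, adjusted p = 0.465, limma) for p53R172H/+ against p53-/- tumors and of 0.23 ± 0.10 (SE, adjusted p = 0.330, limma) for p53R172H/- against p53-/- tumors. S100a9, its partner in calprotectin, was at 9124, 14450 and 13357 in p53R172H/- tumors, at 8414, 11733 and 14495 in p53R172H/+ tumors, and at 10088, 8400 and 8426 in p53-/- tumors. Tumor 1 of each mutant group lay within the p53-/- range. The log2 fold change of S100a9 was 0.43 ± 0.21 (SE) for p53R172H/- against p53-/- tumors. For p53R172H/+ against p53-/- tumors it was 0.33 ± 0.21 (SE), and 0.55 without p53R172H/+ tumor 1 or 0.15 without p53R172H/+ tumor 3. Markers of activated and cornified keratinocytes, cells that make these alarmins too, had a mean log2 signal of 13.13 to 13.50 in p53R172H/-, 13.16 to 13.36 in p53R172H/+ and 13.04 to 13.43 in p53-/- tumors, and their part in the alarmin signal was not tested.

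The granule genes gave no group apart. Camp, the cathelicidin of neutrophil granules, was at 49.9 to 65.4 signal units in p53R172H/-, 48.9 to 61.8 in p53R172H/+ and 51.8 to 63.7 in p53-/- tumors, at or next to the floor in all 9. Ngp, a granule protein of maturing neutrophils, was at 133 to 165 in p53R172H/-, 149 to 157 in p53R172H/+ and 125 to 169 in p53-/- tumors, with wide overlap. Lcn2, the iron-scavenging lipocalin 2 held in granules and also made by inflamed epithelium, was at 538, 1695 and 2596 in p53R172H/- tumors, at 458, 938 and 1322 in p53R172H/+ tumors, and at 1047, 401 and 752 in p53-/- tumors. Its log2 fold change for p53R172H/- against p53-/- tumors was 0.97 ± 0.60 (SE, adjusted p = 0.441, limma), and it moved to 1.62 without p53R172H/- tumor 1, to 0.49 without p53R172H/- tumor 3, to 0.59 without p53-/- tumor 2 and to 0.41 with muscle content as a covariate.

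Among the other neutrophil receptors, Csf3r, the receptor for granulocyte colony-stimulating factor, was at 422, 332 and 478 in p53R172H/- tumors, at 401, 430 and 449 in p53R172H/+ tumors, and at 404, 356 and 347 in p53-/- tumors, with a log2 fold change of 0.21 ± 0.14 (SE) for p53R172H/+ against p53-/- tumors. Fpr2, a receptor for formylated and other inflammatory peptides, was at 126 to 182 in p53R172H/- and 129 to 210 in p53R172H/+ tumors, and at 183, 91.1 and 87.9 in p53-/- tumors. Its overlap rests on p53-/- tumor 1. The log2 fold change was 0.48 ± 0.30 (SE) for p53R172H/- against p53-/- tumors, 0.82 without that tumor, 0.32 without p53-/- tumor 2 and 0.29 without p53-/- tumor 3. For p53R172H/+ against p53-/- tumors it was 0.58 ± 0.30 (SE), and 0.93 without p53-/- tumor 1. Trem1, an amplifier of neutrophil and monocyte activation, was at 165 to 232 in p53R172H/-, 219 to 281 in p53R172H/+ and 216 to 234 in p53-/- tumors. All groups overlapped in these 3 genes, and for Trem1 the dimmer probe set had the opposite sign for p53R172H/- against p53-/- tumors.

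Setting p53R172H/- against p53-/- tumors gives what accompanies the missense allele when no wild-type allele is present. The p53-/- tumors are those used above, so both sets of values are not independent. The mean was higher in p53R172H/- tumors for 23 of the 28 genes, against 43.8% of all genes, with a median of 0.45 over the 10 neutrophil genes and 0.27 over the 15 monocyte and macrophage genes, against -0.03 over all genes. Without p53-/- tumor 2 these medians were 0.33 and 0.05 and 17 genes had the higher mean. The monocyte and macrophage median was 0.05 without p53R172H/- tumor 3 and 0.49 without p53R172H/- tumor 1. Only Il1b had an unadjusted p under 0.05 among the higher genes, where 6.44% of all genes did. Among the lower ones only Cx3cr1 did, where 9.16% of all genes did.

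Il1b was at 752, 516 and 1309 in p53R172H/- tumors, so that tumor 2 lay within the p53-/- range of 385 to 533. Its log2 fold change was 0.87 ± 0.36 (SE, adjusted p = 0.302, limma), and 0.51 without p53R172H/- tumor 3. Clec4d, at 167, 206 and 328, and Clec4e, at 110, 152 and 321 in p53R172H/- tumors, were high only in tumor 3. Their log2 fold changes against p53-/- tumors were 0.51 ± 0.33 (SE) and 0.98 ± 0.55 (SE), or 0.24 and 0.55 without that tumor and 0.34 and 0.60 without p53-/- tumor 2. The dimmer Clec4e probe set was at 0.08 in this comparison. Cd14 was at 757, 1095 and 800 in p53R172H/- tumors, against 781, 618 and 612 in p53-/- tumors, with overlap. Its log2 fold change was 0.39 ± 0.19 (SE, adjusted p = 0.353, limma), and 0.22 without p53R172H/- tumor 2. Cx3cr1, the fractalkine receptor of patrolling monocytes and tissue macrophages, was at 189, 165 and 192 in p53R172H/- tumors, against 218, 243 and 205 in p53-/- tumors. It was the only one of the 28 genes whose groups did not overlap here, lower by a log2 fold change of -0.29 ± 0.12 (SE, adjusted p = 0.306, limma), while 13.8% of all genes lay without overlap on the lower side and 9.11% on the higher side, and its dimmer probe set had the same sign (-0.28).

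**Figure D2:**
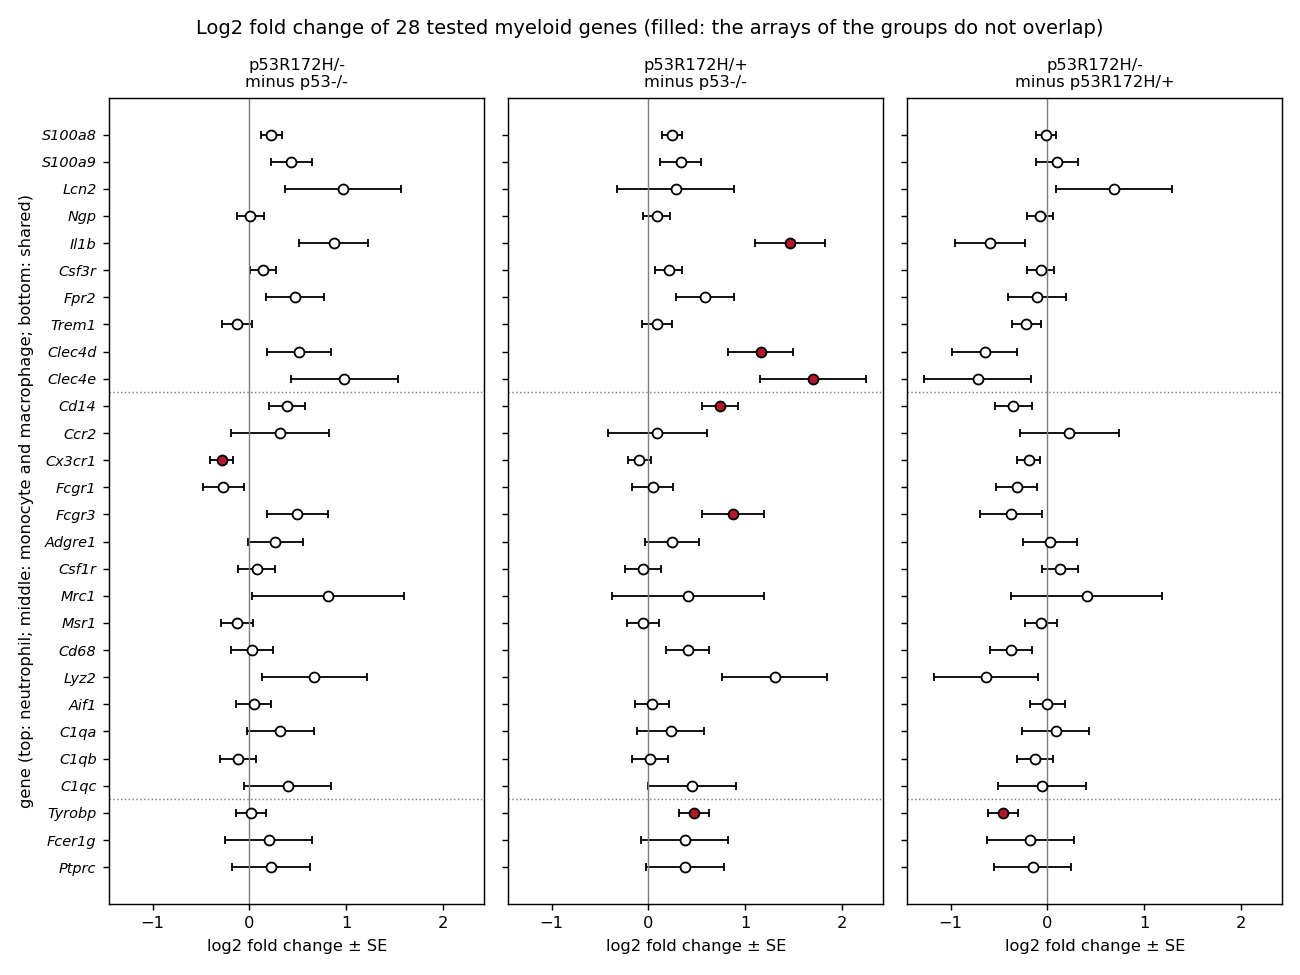
Log2 fold change (horizontal axis, ± SE of the limma fit) of the 28 tested genes for p53R172H/- minus p53-/-, p53R172H/+ minus p53-/- and p53R172H/- minus p53R172H/+ tumors, with filled points where the arrays of the groups do not overlap. The points for p53R172H/+ minus p53-/- reach 1.70 for Clec4e and 1.46 for Il1b, and the first 2 panels share their p53-/- tumors.

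Each group held a tumor low in macrophage genes. The p53R172H/+ tumor 2 had the lowest value of its group in 11 of the 15 monocyte and macrophage genes. The p53-/- tumor 2 had it in 10 of 15, in 6 of 10 neutrophil genes and in all 3 of Tyrobp, Fcer1g and Ptprc, and it was the lowest of all 9 tumors in 5 neutrophil genes. The p53R172H/- tumor 1 had the lowest value of its group in 13 of 15 monocyte and macrophage genes, in 6 of 10 neutrophil genes and in all 3 of Tyrobp, Fcer1g and Ptprc, and the lowest of all 9 tumors in 7 of the 15. Lyz2 was at 742 in it, against 2277 and 2210 in p53R172H/- tumors 2 and 3, and Fcgr3 at 142, against 314 and 379. Csf1r, the receptor macrophages need to survive, was at 711 in tumor 1 and at 1222 and 1202 in tumors 2 and 3, while the p53R172H/+ tumors were at 866 to 979 and the p53-/- tumors at 926 to 1007. The other Csf1r probe sets had the opposite sign for p53R172H/- against p53-/- tumors (-0.22 and -0.03, against 0.07).

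Without p53R172H/- tumor 1, 11 of the 28 genes had an unadjusted p under 0.05, all with p53R172H/- higher, where 6.29% of all genes did in the same fit. None had an adjusted p under 0.259. They were S100a8, S100a9, Lcn2, Cd14, Fcgr3, Adgre1, Csf1r, Mrc1, Lyz2, C1qa and C1qc, and Il1b was not among them. Fcgr3 was then at 0.92 ± 0.17 (SE), against 0.50 ± 0.32 (SE) with all tumors and 0.22 without p53R172H/- tumor 3. The tumor left out is low in these same genes, so this count is a description. Without p53R172H/- tumor 3 the count was 0 in either direction, where 4.59% of all genes were higher and 6.97% lower at that threshold. Without p53-/- tumor 2 it was 1, S100a8, where 3.99% of all genes were higher. In p53R172H/- tumor 1 the muscle genes had a mean log2 signal of 6.49, against 11.50 and 10.22 in tumors 2 and 3, and the fibroblast genes 9.61, against 10.19 and 10.40. Of 9 tested fibroblast genes, 6 had an unadjusted p under 0.05 with p53R172H/- lower than p53-/-, against 9.16% of all genes. With the muscle level as a covariate and all tumors kept, 1 of the 28 genes had an unadjusted p under 0.05, and the log2 fold change of Fcgr3 was 0.16. No share of all genes is given for that fit. The part of fibroblast content was not tested.

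**Figure D3:**
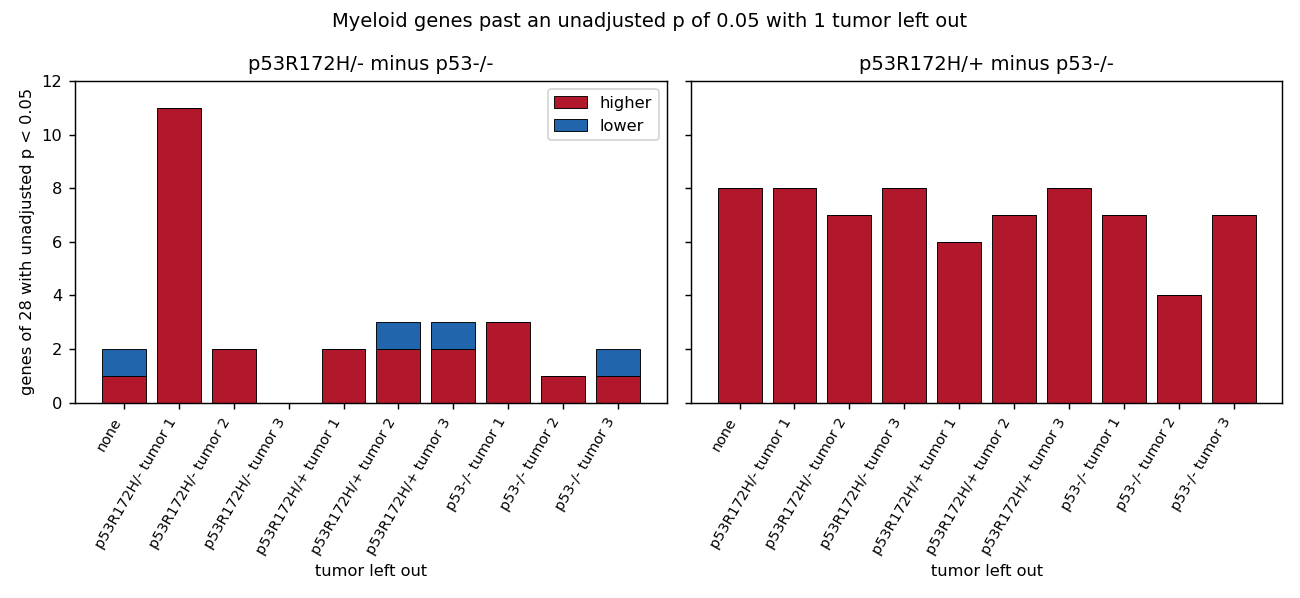
Number of the 28 genes with an unadjusted p under 0.05 (vertical axis), higher (red) or lower (blue), in fits with all tumors (none) or with 1 named tumor left out. For p53R172H/- minus p53-/- the count is 11 without p53R172H/- tumor 1 and 0 without p53R172H/- tumor 3, and for p53R172H/+ minus p53-/- it runs from 4 to 8.

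Mrc1 and Cd163 varied widely among tumors. Mrc1, the mannose receptor of tissue macrophages, was at 75.3, 409 and 713 in p53R172H/- tumors, at 214, 111 and 398 in p53R172H/+ tumors, and at 197, 90.9 and 226 in p53-/- tumors. Cd163, the scavenger receptor that clears haemoglobin, was at 20.04, 376 and 622 in p53R172H/- tumors, at 59.3, 14.8 and 120 in p53R172H/+ tumors, and at 54.2, 17.2 and 64.5 in p53-/- tumors. Both genes were highest in p53R172H/- tumors 3 and 2, in that order, and Cd163 was near or below the floor in most other tumors, which is why it fell below the filter. These 2 tumors also had the highest muscle signals of the 9, and the part of muscle tissue in these values was not tested.

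The groups overlapped in Adgre1, Msr1 and the C1q genes. Adgre1, the F4/80 antigen of mouse macrophages, was at 145, 257 and 311 in p53R172H/- tumors, at 238, 211 and 219 in p53R172H/+ tumors, and at 242, 139 and 198 in p53-/- tumors. C1qa, which encodes one chain of complement C1q, was at 432, 998 and 1026 in p53R172H/- tumors, at 773, 536 and 888 in p53R172H/+ tumors, and at 739, 448 and 684 in p53-/- tumors. C1qb and C1qc, the other chains, ran from 531 to 870 and from 224 to 707 in p53R172H/-, from 635 to 850 and from 369 to 522 in p53R172H/+, and from 628 to 803 and from 188 to 500 in p53-/- tumors. In each group the same tumor was lowest in all 3 chains, tumor 1 among p53R172H/- and tumor 2 among p53R172H/+ and p53-/- tumors. The scavenger receptor Marco was at 87.1 to 111 in p53R172H/-, 82.6 to 92.6 in p53R172H/+ and 93.8 to 115 in p53-/- tumors, all p53R172H/+ tumors lying below all p53-/- tumors at signals under the filter. Msr1 was at 188 to 245 in p53R172H/-, 224 to 251 in p53R172H/+ and 207 to 309 in p53-/- tumors. For C1qb and Msr1 a further probe set had the opposite sign in the comparisons of each mutant group with p53-/- tumors.

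Among the monocyte receptors, Ccr2 was at 141, 386 and 252 in p53R172H/- tumors, at 316, 133 and 206 in p53R172H/+ tumors, and at 314, 93.9 and 242 in p53-/- tumors, with wide overlap and a further probe set of opposite sign. Fcgr1, the high-affinity antibody receptor, was at 119 to 149 in p53R172H/-, 124 to 222 in p53R172H/+ and 137 to 182 in p53-/- tumors. Aif1, the actin-binding protein IBA1 of macrophages, was at 110 to 123 in p53R172H/-, 89.1 to 137 in p53R172H/+ and 94.7 to 127 in p53-/- tumors. Ptprc, the CD45 phosphatase of all white blood cells, was at 282, 496 and 617 in p53R172H/- tumors, at 601, 574 and 344 in p53R172H/+ tumors, and at 658, 244 and 338 in p53-/- tumors. Fcer1g, the common gamma chain of antibody receptors, was at 208 to 387 in p53R172H/-, 272 to 407 in p53R172H/+ and 126 to 516 in p53-/- tumors. For Ptprc the p53-/- tumors held both the highest and the lowest value of all 9, and its dimmer probe set had the opposite sign in each comparison.

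**Figure D4:**
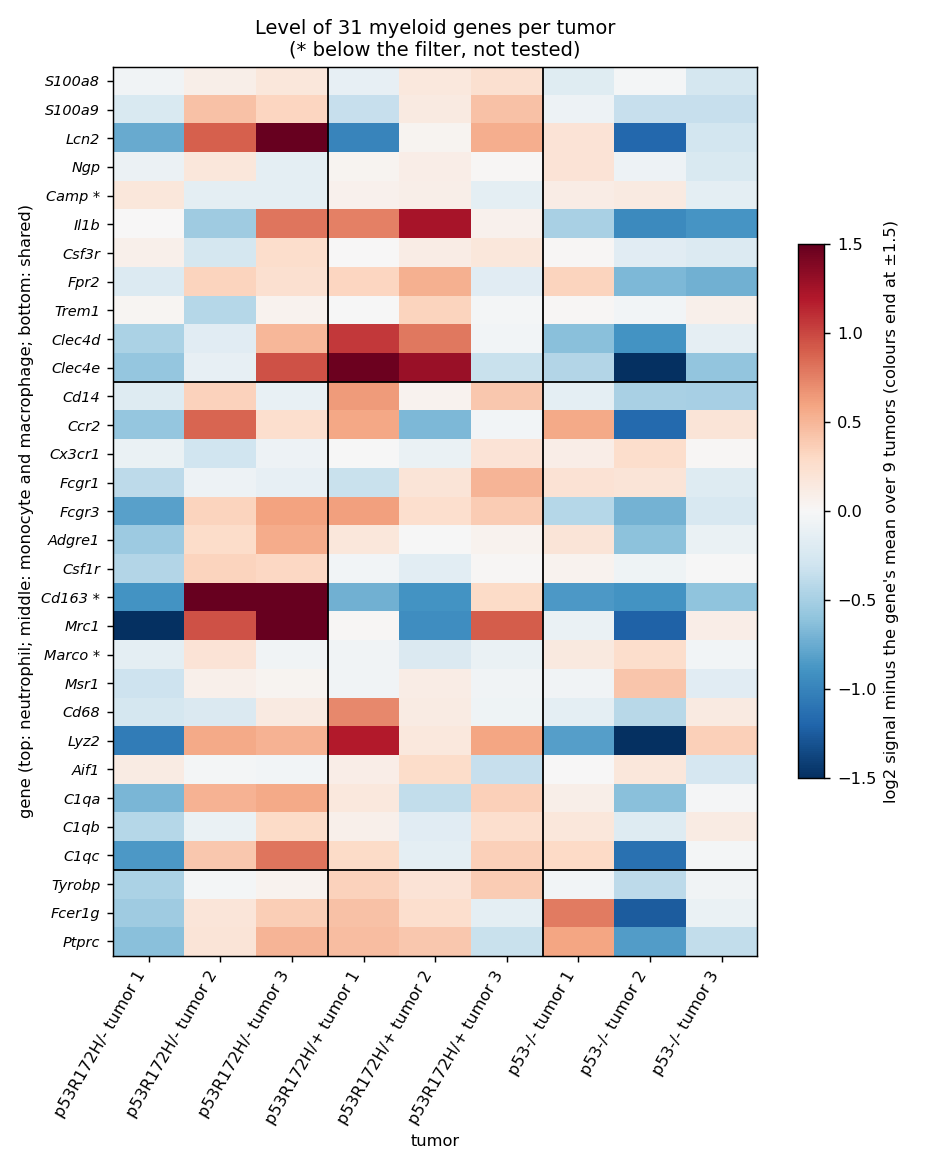
Log2 signal of 31 genes (rows) in 9 tumors (columns) minus each gene's mean over the tumors, red for above and blue for below, with colours ending at ±1.5. The column of p53R172H/- tumor 1 is blue in the middle block, where it holds the lowest value of its group in 13 of the 15 tested monocyte and macrophage genes.

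The 28 genes varied more between tumors of 1 genotype than most genes did. The median within-group SD was 0.36 on the log2 scale, against 0.16 over all 12167 genes, and 25 of the 28 were above that median. Of the 28, 14 lay in the top 10 percent of all genes. Mrc1 had the widest spread (SD 1.18), followed by Lcn2 (0.91), Clec4e (0.83) and Lyz2 (0.82). Cx3cr1 (0.13), S100a8 (0.14) and Ngp (0.16) lay below the median of all genes.

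The neutrophil and the macrophage genes did not follow each other in every tumor. For each tumor the mean log2 signal over the 11 measured neutrophil genes and over the 17 monocyte and macrophage genes was taken, minus its mean over the 9 tumors. Both levels are named after their gene lists and do not count cells. The p53R172H/+ tumor 2 had the highest neutrophil level, 0.44, with a macrophage level of -0.15, a difference of 0.59. The p53R172H/- tumor 1 had the lowest macrophage level, -0.53, with a neutrophil level of -0.19, a difference of 0.34. The p53R172H/- tumor 2 lay the other way, with a neutrophil level of 0.02 and a macrophage level of 0.36. The p53R172H/- tumor 3 was high in both (0.41 and 0.47) and the p53-/- tumor 2 low in both (-0.54 and -0.45).

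By group, the difference between both levels was 0.34, -0.34 and -0.06 in p53R172H/-, 0.01, 0.59 and -0.15 in p53R172H/+, and -0.04, -0.08 and -0.27 in p53-/- tumors. No group lay apart. With only genes above the 75th percentile of signal, p53R172H/+ tumor 1 was at -0.57 and p53R172H/- tumor 3 at 0.26. The neutrophil level itself was -0.19, 0.02 and 0.41 in p53R172H/- tumors, 0.21, 0.44 and 0.07 in p53R172H/+ tumors, and -0.09, -0.54 and -0.34 in p53-/- tumors. These are descriptions of the chosen genes and carry no test.

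**Figure D5:**
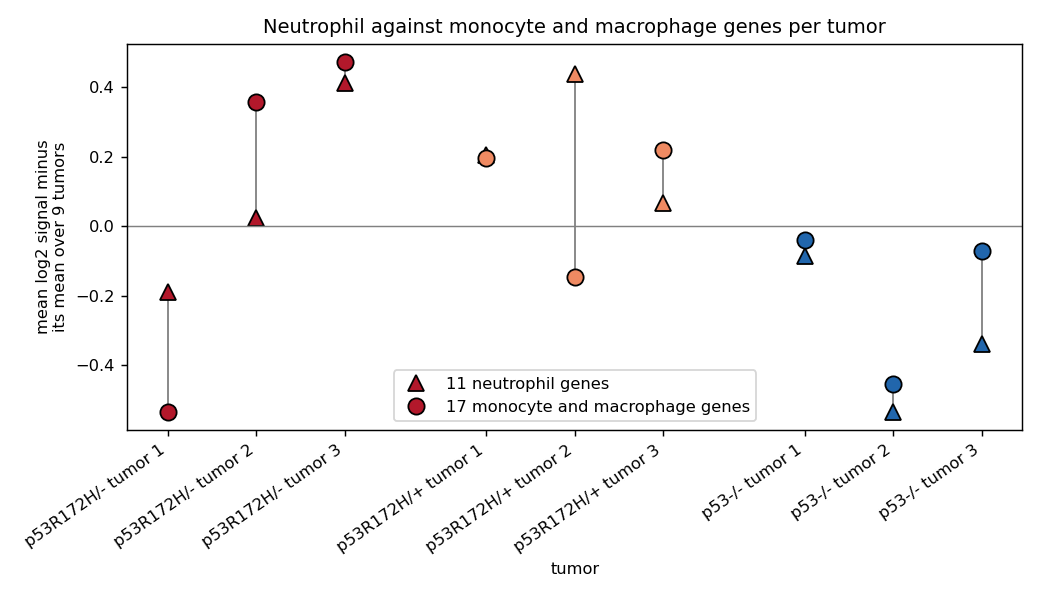
Mean log2 signal of 11 neutrophil genes (triangles) and 17 monocyte and macrophage genes (circles) in each tumor, minus its mean over the 9 tumors, with a line joining both. The widest gap is in p53R172H/+ tumor 2, at 0.44 against -0.15, and both points are low in p53-/- tumor 2.

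Between p53R172H/- and p53R172H/+ tumors the labels differ in the second allele, null or wild type. The tissue content differed too, with 9 of 9 tested muscle genes higher on average in p53R172H/- tumors (median 2.07) and 6 of 9 fibroblast genes lower at an unadjusted p under 0.05. The mean was lower in p53R172H/- tumors for 20 of the 28 genes and higher for 8, where 48% of all genes were higher, with a median of -0.09 over the 10 neutrophil genes and -0.07 over the 15 monocyte and macrophage genes, against -0.01 over all genes. Without p53R172H/- tumor 1, 15 of the 28 were higher and the monocyte and macrophage median was 0.05, while it was -0.27 without p53R172H/- tumor 3. Only Tyrobp had an unadjusted p under 0.05, with p53R172H/- lower, where 2.96% of all genes did, and 0 did with p53R172H/- higher, where 2% of all genes did. It was at 557, 760 and 801 in p53R172H/- tumors, against 982, 887 and 1008 in p53R172H/+ tumors, without overlap, as for 6.62% of all genes on the lower side, while 0 members and 5.27% of all genes lay without overlap on the higher side. The log2 fold change was -0.46 ± 0.15 (SE, adjusted p = 0.949, limma), and -0.30 without p53R172H/- tumor 1.

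Il1b, Clec4d and Cd14 had log2 fold changes of -0.59 ± 0.36, -0.65 ± 0.33 and -0.35 ± 0.19 (SE) between p53R172H/- and p53R172H/+ tumors, with overlap in each. Cd68, Fcgr1, Trem1 and Cx3cr1 were at -0.38 ± 0.22, -0.32 ± 0.21, -0.22 ± 0.15 and -0.19 ± 0.12 (SE). Single tumors moved these values, that of Il1b to -0.28 without p53R172H/- tumor 2 and to -0.95 without p53R172H/- tumor 3. Without p53R172H/+ tumor 1, Clec4d was at -0.42, Cd14 at -0.21, Cd68 at -0.15 and Fcgr1 at -0.55. Without p53R172H/+ tumor 3, Fcgr1 was at -0.12 and Cx3cr1 at -0.11, while leaving out tumor 2 put Trem1 at -0.06 (p53R172H/-) or -0.10 (p53R172H/+). With the muscle level as a covariate 5 of the 28 genes had an unadjusted p under 0.05, with no share of all genes given for that fit. The higher Il1b, Clec4d and Cd14 values in p53R172H/+ tumors are thus not shown to differ from those in p53R172H/- tumors. With 1 tumor left out, the count of genes past the unadjusted threshold ran from 1 to 5, and without p53R172H/- tumor 1 it was 3, all with p53R172H/- higher (Csf1r, Lcn2 and Mrc1), against 4.92% of all genes. It was 5, all with p53R172H/- lower, without p53R172H/+ tumor 3, against 2.04% of all genes.

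With both mutant groups set against p53-/- tumors, 23 of the 28 genes had the higher mean, against 43.5% of all genes. Of the 28, 6 had an unadjusted p under 0.05 with the mutants higher, where 6.84% of all genes did, and 0 with the mutants lower, where 9.09% did. They were S100a8, Il1b, Clec4d, Clec4e, Cd14 and Fcgr3. Il1b was at a log2 fold change of 1.17 ± 0.31 (SE, adjusted p = 0.203, limma) and Cd14 at 0.56 ± 0.16 (SE, adjusted p = 0.223, limma). The 6 mutant and 3 p53-/- tumors lay apart for 0 members, against 3.34% of all genes on the higher and 3.94% on the lower side. The count was 14 without p53R172H/- tumor 1, where 6.71% of all genes passed in that direction, and 3 without p53-/- tumor 2, where 4.18% did.

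Signals that recruit these cells, and partners of interleukin 1, were read from lists of other genes. Of 16 tested chemokine and growth factor genes, 11 were higher on average in p53R172H/+ than in p53-/- tumors, against 43.9% of all genes, and 1 had an unadjusted p under 0.05, against 4.75%. This was Cxcl2, a chemokine that draws neutrophils, at 1060, 1458 and 471 in p53R172H/+ tumors, against 267, 301 and 176 in p53-/- tumors (1.89 ± 0.44 SE, adjusted p = 0.359, limma). In p53R172H/- tumors Cxcl2 was at 800, 449 and 1102 (1.60 ± 0.44 SE, adjusted p = 0.218, limma), also above every p53-/- tumor. In this comparison 2 of the 16 were higher at an unadjusted p under 0.05, against 6.44% of all genes, and 1 was lower, against 9.16%. The other higher one was the chemokine gene Cxcl1, at 1485, 584 and 770 in p53R172H/- tumors, against 366, 537 and 218 in p53-/- tumors (1.32 ± 0.48 SE). Csf1, the growth factor of macrophages, lay the other way, at 236, 254 and 240 in p53R172H/- tumors, against 294, 419 and 282 in p53-/- tumors. Its log2 fold change was -0.42 ± 0.17 (SE, adjusted p = 0.298, limma), -0.24 without p53-/- tumor 2 and -0.09 with the mean of all probe sets. The tumors with the highest Cxcl2 in each mutant group, p53R172H/+ tumor 2 and p53R172H/- tumor 3, were those with the highest Il1b. Among p53-/- tumors the order differed, as tumor 2 had the highest Cxcl2 (301) and the lowest Il1b (385).

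Of 13 tested genes of the interleukin 1 pathway, 4 had an unadjusted p under 0.05 with p53R172H/- higher than p53-/- and 1 with it lower, against 6.44% and 9.16% of all genes. For p53R172H/+ these counts were 0 and 1, against 4.75% and 5.6% of all genes. Il1a, the sister cytokine that keratinocytes store, was at 704, 340 and 316 in p53R172H/- tumors, against 180, 131 and 251 in p53-/- tumors (1.22 ± 0.41 SE, adjusted p = 0.258, limma). Il18, a related cytokine, had the opposite direction (-0.54 ± 0.19 SE, adjusted p = 0.267, limma) and was at -0.29 without p53R172H/- tumor 1. Il1f9, the epithelial cytokine interleukin 36 gamma, is not among these 13 genes and is counted below with the granulocyte products. It was at 4512, 3558 and 3356 in p53R172H/+ tumors, against 2874, 2194 and 2561 in p53-/- tumors (0.58 ± 0.15 SE, adjusted p = 0.359, limma).

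Of 11 tested genes of a list of other granulocyte products, 8 were higher on average in p53R172H/+ than in p53-/- tumors, against 43.9% of all genes, and 2 had an unadjusted p under 0.05, against 4.75%. These were Il1f9, which epithelial cells make as well, and the prostaglandin synthase gene Ptgs2 (1.22 ± 0.50 SE, 0.77 without p53-/- tumor 2 and 1.92 without p53-/- tumor 3). Of 21 other macrophage genes, 16 were higher and 2 had an unadjusted p under 0.05, against the same shares of all genes, namely the lysosomal protease gene Lgmn (0.58 ± 0.25 SE) and the arginase gene Arg1 (0.27 ± 0.12 SE). Arg1 had high signals in both groups, 11692, 13308 and 10275 in p53R172H/+ tumors, against 9115, 9920 and 10003 in p53-/- tumors. Which cells made it was not tested, so the list's name does not fix its source. For p53R172H/- against p53-/- tumors, 14 of the 21 were higher and 0 had an unadjusted p under 0.05 in either direction. In the same comparison 6 of the 11 granulocyte products were higher and 5 lower, while 43.8% of all genes were higher. At an unadjusted p under 0.05, 1 was higher (Il1f9, 0.48 ± 0.15 SE) and 1 lower (Stfa3, -0.85 ± 0.38 SE). The shares of all genes were 6.44% and 9.16%.

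Genes of antigen presentation by class II molecules, which macrophages, dendritic cells and B cells show on their surface, lay the other way. All 5 tested genes were lower on average in p53R172H/- and in p53R172H/+ than in p53-/- tumors, with medians of -0.29 and -0.48, while 43.8% and 43.9% of all genes were higher. H2-Eb1, a class II beta chain, was at 535, 729 and 872 in p53R172H/- tumors and at 680, 443 and 623 in p53R172H/+ tumors, against 1156, 956 and 920 in p53-/- tumors. Every mutant tumor lay below every p53-/- tumor in H2-Eb1, as for 3.94% of all genes. The log2 fold changes were -0.53 ± 0.21 (SE, adjusted p = 0.289, limma) for p53R172H/- and -0.81 ± 0.21 (SE, adjusted p = 0.359, limma) for p53R172H/+ tumors, and the first was -0.33 without p53R172H/- tumor 1. It was the only 1 of the 5 genes to lie apart in this way. H2-Aa and H2-Ab1, of the same list, overlapped between the mutant and p53-/- tumors. H2-Aa was at 1235, 1865 and 1861 in p53R172H/- and 1744, 862 and 1181 in p53R172H/+ tumors, against 2094, 1377 and 1886 in p53-/- tumors.

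Markers of other white blood cells were low. The 9 measured T cell markers had a mean log2 signal of 6.82 to 7.17 in p53R172H/-, 6.87 to 7.15 in p53R172H/+ and 7.07 to 7.15 in p53-/- tumors. The 8 measured dendritic and Langerhans cell markers were at 6.78 to 6.83 in p53R172H/-, 6.61 to 6.96 in p53R172H/+ and 6.87 to 6.94 in p53-/- tumors. Of 6 measured eosinophil markers 5 lay near the floor, as did 4 of 6 natural killer cell markers and 2 of 7 B cell and plasma cell markers.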

How the data were processed

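RNA from 9 oral tumors was column-purified and biotin-labelled for Affymetrix arrays, per the labels' protocols. The values are linear intensity signals that the authors deposited, made with MAS5 per the submitters' processing notes, with version and scaling not given in the sources.

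Of 45037 non-control probe sets, 34945 name 1 gene and the rest were not tested. Values under the 20th percentile (52.6) were raised to it, log2 was taken, and each gene was read on its brightest probe set. Genes with a mean log2 signal under the median of non-control probe sets (113) were left out. Group means were fitted over 9 arrays with limma 3.58.1 (R 4.3.3, variance trend), with two-sided p adjusted by Benjamini-Hochberg over 12167 genes. The fit was tested on simulated data. "Near the floor" means within 0.5 log2 units of it. Lists are described by counts and medians and were not tested.

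The members, lists and motifs were chosen with earlier results of these data known. All 33 genes may be named. Values in every tumor are given for 12 genes set by rule and the 4 with the smallest p per comparison, and folds of members only where the unadjusted p was under 0.2. Other pathway genes are named where they were among the 3 smallest p of their list. Some further member and marker values were added after the data were seen. The transcript of p53 itself was not analysed here.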

Additional observations from a re-analysis of the deposited data

How the results depend on the processing

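With limma, 0 of the 28 genes were called in any of the 4 comparisons under the 21 alternatives (20 for both mutants together), and over all genes the calls stayed at 0 except where named here. With muscle content as a covariate, 25 genes were called for p53R172H/- against p53-/- and 4 for both mutants, and with 1 array left out the latter comparison had 0 to 1. The 70 folds recomputed were picked for a small unadjusted p in the main limma fit (members under 0.2, other genes under 0.05). A change of direction was thus unlikely from the start. They kept their direction in 1427 of 1427 refits, with an adjusted p of at least 0.0501. Members with a larger p were not in this count. Some of them changed direction with 1 tumor left out, as the counts of higher genes given above show.

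The count of members with an unadjusted p under 0.05 moved more. No share of all genes is given beside the counts in this paragraph, the muscle covariate included, so they have no background here. For p53R172H/- against p53-/- (2 genes) it was 1 with no filter, with the 75th percentile filter, with the mean of all probe sets and with the muscle covariate, 4 with only the groups compared, and 0 to 11 with 1 array left out. For p53R172H/+ against p53-/- (8 genes) it was 5 with the 75th percentile filter and 4 to 8 with 1 array left out. For p53R172H/- against p53R172H/+ (1 gene) it was 2 with the mean of all probe sets, 5 with the muscle covariate and 1 to 5 with 1 array left out. For both mutants (6 genes) it was 3 with the 75th percentile filter and 3 to 14 with 1 array left out. That filter tests fewer genes, and otherwise the cause was not tested. Under it the neutrophil minus macrophage level moved to 0.26 in p53R172H/- tumor 3 and to -0.57 in p53R172H/+ tumor 1. With muscle as a covariate, p53R172H/- against p53-/- tumors had log2 fold changes of 0.16 for Fcgr3 and 0.24 for S100a9.

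The labels do not say that the tumor numbers in the titles pair the samples. Deviations from the group means correlated at -0.50 to 0.24 between same-numbered tumors and at -0.47 to 0.52 between others, across genes. These ranges overlap and do not settle whether the numbers pair the samples. With the tumor number as a replicate block the count for p53R172H/- against p53-/- was 1, and the other counts stayed within 1.5 times. No share of all genes is given for that fit either. The number of arrays limits the precision.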
